A study of Saccharomyces cerevisiae with 12 samples.

Results

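Transcript levels were compared between a leu3 deletion strain of Saccharomyces cerevisiae and its reference strain during carbon-limited growth on ethanol. The comparison takes 6 of the 12 arrays of the series, with 3 carbon-limited arrays of each strain. The deletion strain is the haploid prototroph CEN.PK540-3A, MATa, in which bases 41 to 2621 of LEU3 are replaced by a loxP-Kan-loxP marker. The reference is the haploid prototroph CEN.PK113-7D, MATa LEU3. Both were grown in chemostats at 30 °C, pH 5.0 and a dilution rate of 0.10 per h on a feed with ethanol at 6.0 g/l and ammonium sulfate at 5.0 g/l. Aeration kept dissolved oxygen above 50% of air saturation, and steady-state samples were taken after 10 to 14 volume changes. The remaining 6 arrays hold the same strains under nitrogen limitation, with 1.0 g/l ammonium sulfate and a glucose feed of 53 g/l for the deletion strain and 59 g/l for the reference. They are used below only to show where the strain effect on ethanol differed. Arrays are numbered 1 to 3 within a group, and no label says whether they came from separate cultures, so the p-values measure the spread between these samples, which may be technical.

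Leu3 is a zinc cluster transcription factor that binds the promoters of genes for leucine and branched-chain amino acid synthesis. It activates them when it carries alpha-isopropylmalate, the product of the first committed step of leucine synthesis, and represses them when it does not. In yeast the first steps of the pathway run in the mitochondrion and the last steps of leucine synthesis in the cytosol. A carbon-limited ethanol culture makes its amino acids from acetyl-CoA through respiratory metabolism, with ammonium in excess.

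Values are probe set intensities on a linear scale, with each array scaled to the same trimmed mean. They were floored at 12 and taken to log2. A gene is called when its adjusted p is under 0.05 in the fit over all 12 arrays. Of 5321 genes tested, 28.1% were called between the strains on ethanol, 926 of them higher and 568 lower in the deletion strain. The shares were 17.4% higher and 10.7% lower. The median log2 change of all genes was 0.05. Centring each array on its median gave a median change of -0.11 and a split of 544 higher and 985 lower, and quantile normalization gave -0.05, with 596 higher and 744 lower. At least 2-fold changes were called for 186 genes higher and 88 lower.

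The 3 reference arrays were not alike. For actin, the signal at the 3′ end divided by that at the 5′ end, a ratio that is higher where labelled transcripts are shorter, was 1.71 to 1.91 on the deletion arrays and 3.31, 9.27 and 14.0 on reference arrays 1, 2 and 3. The ratio for SPT15 was 2.56 to 2.93 on the deletion arrays and 3.64, 8.08 and 10.1 on the reference arrays. The median SD of log2 values was 0.15 between deletion arrays and 0.25 between reference arrays. The effects of named genes are therefore also given against reference array 1 alone, in a fit that leaves out arrays 2 and 3 and assumes that the lone array varies like the other groups. That fit has less precision. In it, 307 of the called genes were called again, which is 5.77% of the genes tested, with 3.14% higher and 2.63% lower. The part of the transcript length ratios in the remaining calls was not tested.

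LEU3 itself had intensities of 0.6, 0.5 and 0.6 on the deletion arrays, against 76.7, 62.4 and 59.9 on the reference arrays. All 3 deletion arrays lay under the floor, and LEU3 was at least 5.49-fold lower in the deletion strain (adjusted p = 5.12e-08, limma). Where its probes lie relative to the removed bases was not checked. HMG2, the gene before LEU3 on chromosome XII and a sterol pathway HMG-CoA reductase, had 239.6, 208.5 and 201.4 in the deletion strain, against 309.7, 470.4 and 502.4 in the reference. It was lower by the fit, with a log2 change of -0.95 ± 0.19 (SE, adjusted p = 0.00245, limma). Against reference array 1 the difference was -0.52 and was not called. FPR4, before HMG2, had a log2 difference of -0.21 and SST2, after LEU3, one of 0.20, with -0.24 and 0.05 against array 1, and neither was called.

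All 6 classical Leu3 targets on the list, LEU1, LEU2, LEU4, ILV2, ILV5 and GDH1, were called lower, and in each the 3 deletion arrays lay below the 3 reference arrays. Groups without overlap were seen for 39.6% of all genes tested, 16.2% with the deletion arrays below and 23.5% with them above. Of these targets 4 were also called against reference array 1 alone. Their median log2 change was -0.76 with all reference arrays and -0.93 against array 1, where the medians of all genes tested were 0.05 and 0.02.

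Of the branched-chain synthesis genes, LEU2 had the largest change, on its brightest probe set. LEU2, which encodes beta-isopropylmalate dehydrogenase, had intensities of 665.8, 598.3 and 562.0 in the deletion strain, against 1885.4, 2086.7 and 1869.9 in the reference. The deletion arrays lay far below every reference array, a 3.20-fold difference with a log2 change of -1.68 ± 0.14 (adjusted p = 4.64e-06, limma). Against array 1 alone the log2 change of LEU2 was -1.63. LEU1, the isopropylmalate isomerase that acts before it, had 298.2, 396.4 and 306.7 in the deletion strain, against 976.4, 893.2 and 629.0 in the reference. Again no arrays overlapped, and the change was -1.31 ± 0.17 (adjusted p = 0.000186, limma), with -1.56 against array 1. LEU2 has 3 probe sets for which single-gene values exist, and they disagreed in size and, for the dimmest, in sign. The brightest, given above, changed by -1.68 and another by -1.13, while the dimmest had a difference of 0.46 that was not called.

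The entry to the leucine branch had smaller changes, except for OAC1. LEU4, the main alpha-isopropylmalate synthase, had 2229.3, 1986.1 and 1970.7 in the deletion strain, against 2808.3, 3450.0 and 3620.6 in the reference. The groups did not overlap and the change was -0.67 ± 0.14 (adjusted p = 0.00392, limma). The call did not hold against array 1 alone (-0.45, adjusted p = 0.139) or under quantile normalization (-0.36, adjusted p = 0.0606). LEU9, the second isopropylmalate synthase, had 63.4, 58.4 and 62.4 in the deletion strain, against 100.8, 79.7 and 62.7 in the reference. Its log2 difference of -0.37 was not called, because reference array 3 lay close to the deletion arrays. Without reference array 3 it was called at -0.55 (adjusted p = 0.0326, limma), and against array 1 alone at -0.72. OAC1, the mitochondrial carrier that exchanges oxaloacetate and exports isopropylmalate, had 279.3, 227.7 and 226.8 in the deletion strain, against 684.7, 465.2 and 565.1 in the reference. It changed by -1.21 ± 0.17 (adjusted p = 0.000268, limma) and by -1.49 against array 1.

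The steps shared by valine, isoleucine and leucine were lower by smaller amounts. ILV2, the catalytic subunit of acetolactate synthase, had 375.4, 348.4 and 410.7 in the deletion strain, against 672.8, 681.2 and 546.7 in the reference. The change was -0.74 ± 0.14 (adjusted p = 0.00225, limma), with -0.83 against array 1. ILV6, the regulatory subunit of the same enzyme, had 1379.0, 1280.1 and 962.0 in the deletion strain, against 1257.2, 1710.2 and 789.6 in the reference. The groups overlapped fully and the difference was 0.00 ± 0.31, with -0.08 against array 1. ILV5, the reductoisomerase, had 1068.6, 1129.3 and 1300.7 in the deletion strain, against 2380.7, 2094.0 and 1588.4 in the reference. It changed by -0.78 ± 0.16 (adjusted p = 0.00332, limma), and by -1.03 against array 1. ILV3, the dihydroxyacid dehydratase, had 562.2, 747.3 and 516.1 in the deletion strain, against 872.7, 917.3 and 904.9 in the reference. Its change of -0.58 was called, but not without deletion array 3 (-0.47, adjusted p = 0.0506), not in a fit of the carbon-limited arrays alone (adjusted p = 0.0555), and not against array 1 (-0.54). ILV1, the threonine deaminase that starts isoleucine synthesis, pointed the other way with a log2 difference of 0.41 (adjusted p = 0.0519, limma). Without reference array 1 it was called at 0.51 (adjusted p = 0.0191), and against array 1 alone the difference was 0.21.

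Of the branched-chain transaminases, BAT1 was called and BAT2 was not. BAT1, the mitochondrial branched-chain aminotransferase, had 164.0, 217.9 and 163.6 in the deletion strain, against 536.2, 446.8 and 464.2 in the reference. It was lower on every deletion array, by -1.42 ± 0.16 (adjusted p = 4.65e-05, limma) and by -1.57 against array 1. BAT2, its cytosolic counterpart, had 684.2, 742.2 and 704.7 in the deletion strain, against 620.2, 498.7 and 618.6 in the reference. Its difference of 0.30, and of 0.20 against array 1, was not called. GDH1, the NADPH-dependent glutamate dehydrogenase that fixes ammonium, had 1536.4, 1502.4 and 1715.1 in the deletion strain, against 2202.5, 2438.0 and 2411.5 in the reference. Its change of -0.57 (adjusted p = 0.00526, limma) was not called against array 1 alone (-0.48, adjusted p = 0.0973) or under quantile normalization (-0.33, adjusted p = 0.0577). Over the whole list of branched-chain synthesis, 8 of 12 members were called lower and none higher, 66.7% against 10.7% of all genes lower.

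BAP2, a plasma membrane permease for leucine, isoleucine and valine, showed the largest called decrease of any transporter on the permease list. It had 15.5, 13.5 and 14.4 in the deletion strain, close to the floor, against 105.6, 72.5 and 69.2 in the reference. The change was -2.49 ± 0.18 (5.60-fold, adjusted p = 1.41e-06, limma) and -2.87 against array 1. A fit with the actin ratio as a covariate left 54 genes called. The ratio did not overlap between the strains over both limitations, with 1.54 to 1.91 on deletion arrays and 2.45 to 14.0 on reference arrays. That fit therefore cannot cleanly separate the ratio from the strain, and no conclusion is drawn from calls lost in it. In that fit the change of BAP2 was -3.16 (adjusted p = 2.11e-05, limma). LEU1, LEU2, BAT1 and OAC1 were called there too, between -1.52 and -1.80 log2. The calls of ILV5 (-1.20, adjusted p = 0.0575), ILV2 (-1.0, adjusted p = 0.0912), ILV3 (-0.49), GDH1 (-0.43) and LEU4 (-0.36) were lost in that fit.

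**Figure D1:**
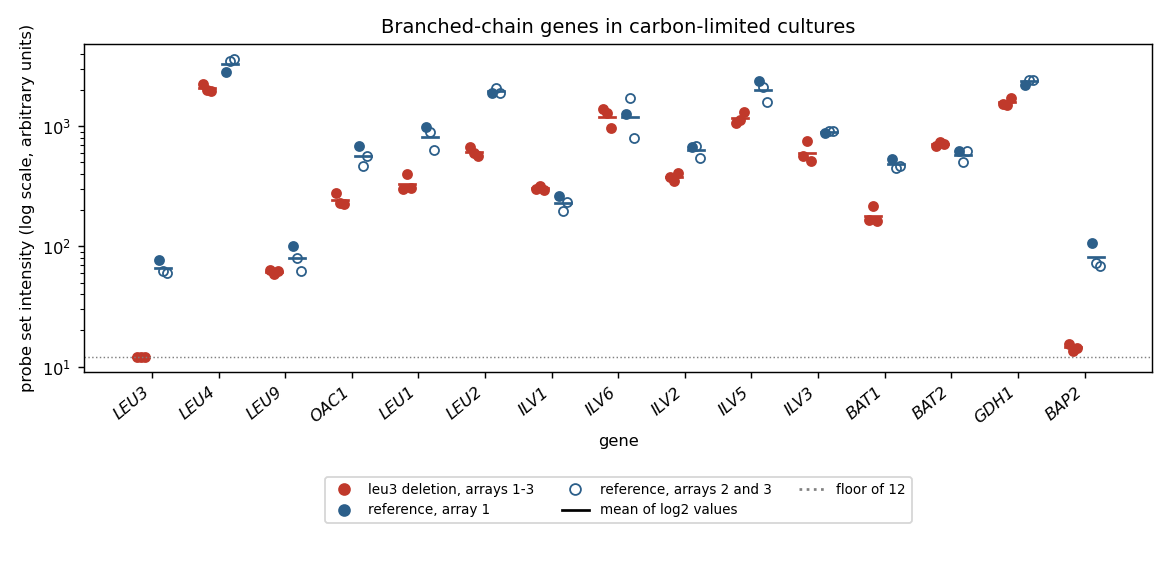
Intensity of each branched-chain gene (log axis, arbitrary units, floored at 12) on the 3 deletion arrays (red, left) and the 3 reference arrays (blue, right; array 1 filled), with a line at the mean of the log2 values. LEU1, LEU2, BAT1, OAC1 and BAP2 are separated by more than either group's spread, while ILV6 overlaps.

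The strain effect on these genes was then set against that under nitrogen limitation, and the difference was tested as an interaction term (carbon minus nitrogen). Interactions were called for 18.3% of all genes tested, 13.1% positive and 5.24% negative, and strain effects under nitrogen limitation for 22.2%, 6.05% higher and 16.1% lower. The nitrogen-limited split was 322 higher and 859 lower, against 519 and 467 with arrays centred on the median and 449 and 634 with quantile normalization. LEU1, LEU2 and BAT1 had strain effects of -1.31, -1.68 and -1.42 log2 on ethanol, and of -1.74, -1.72 and -1.54 log2 under nitrogen limitation. Their interactions of 0.43 (SE 0.25), 0.04 (SE 0.20) and 0.13 (SE 0.22) were not called, which bounds the differences only to within these errors. OAC1 had -1.21 on ethanol and -0.60 under nitrogen limitation, with an interaction of -0.62 (adjusted p = 0.0851, limma). GDH1 had -0.57 on ethanol and -0.04 under nitrogen limitation, with an interaction of -0.53 that was not called (adjusted p = 0.0573, limma).

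LEU4, ILV2, ILV5 and ILV3 had opposite signs under the limitations. LEU4 had -0.67 on ethanol and 0.69 under nitrogen limitation, an interaction of -1.36 ± 0.20 (adjusted p = 0.000571, limma). ILV2 had -0.74 on ethanol and 0.80 under nitrogen limitation (interaction -1.54, adjusted p = 0.000274). ILV5 had -0.78 on ethanol and 0.49 under nitrogen limitation (interaction -1.27, adjusted p = 0.00244). ILV3 had -0.58 on ethanol and 0.59 under nitrogen limitation (interaction -1.17, adjusted p = 0.00196). All 8 of these strain effects were called by limma in the fit over all arrays. LEU9 and BAT2 were called only under nitrogen limitation, at 0.99 and 1.25, with interactions of -1.36 and -0.95 that were also called. BAP2 was lower under both, with -2.49 on ethanol and -0.63 under nitrogen limitation, and the interaction of -1.86 was called (adjusted p = 0.000305, limma). Under nitrogen limitation BAP2 had 12.7, 14.4 and 10.0 in the deletion strain, against 18.7, 24.6 and 17.5 in the reference. So near the floor of 12, a decrease as large as on ethanol could not appear. The interaction of BAP2 is therefore no measure of a smaller effect there.

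**Figure D2:**
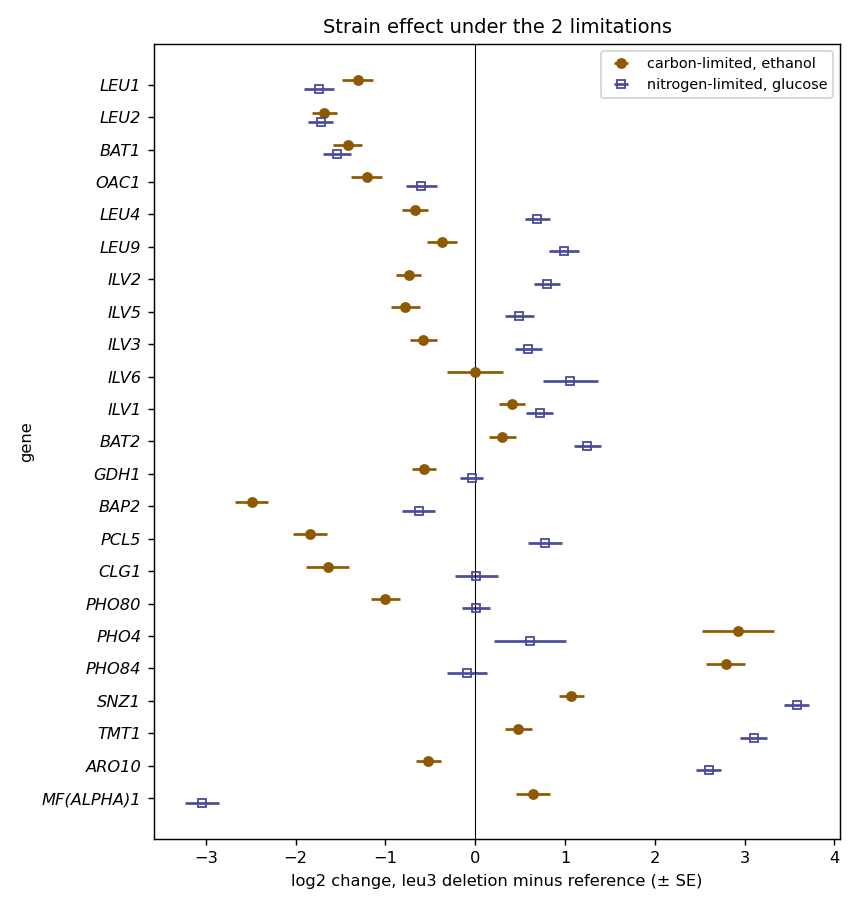
Log2 strain effect (deletion minus reference) with its standard error, for the carbon-limited (filled circles) and nitrogen-limited (open squares) cultures. LEU1, LEU2 and BAT1 lie left of 0 under both limitations, while LEU4, ILV2, ILV5, ILV3 and PCL5 lie on opposite sides of 0.

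Some cyclins of the Pho85 kinase were also called lower on ethanol. Pho85 is a cyclin-dependent kinase that pairs with several cyclins, each directing it to other substrates: Pcl5 to the amino acid regulator Gcn4, Pho80 to the phosphate regulator Pho4. Of 11 members tested, 5 were called lower and none higher, a share of 45.5% against 10.7% of all genes lower, and 4 of them were also called against array 1 alone. The kinase and the cyclins PCL1, PCL6, PCL7, PCL9 and PCL10 were not called. The list's median log2 change was -0.39 and -0.33 against array 1.

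PCL5 had 65.0, 80.8 and 55.1 in the deletion strain, against 256.7, 187.9 and 273.3 in the reference. Every deletion array lay far below every reference array, with a change of -1.84 ± 0.19 (adjusted p = 3.42e-05, limma) and of -1.96 against array 1. CLG1, another cyclin of the family, had 30.5, 38.5 and 35.9 in the deletion strain, against 139.1, 109.0 and 84.2 in the reference. It changed by -1.64 ± 0.24 (adjusted p = 0.000345, limma) and by -2.0 against array 1. PCL2, a G1 cyclin, had 28.7, 34.5 and 41.5 in the deletion strain, against 87.9, 67.0 and 65.1 in the reference, with a change of -1.07 and of -1.35 against array 1. PHO80 had 38.1, 29.6 and 29.0 in the deletion strain, against 63.9, 58.8 and 70.0 in the reference, and changed by -1.0 with all reference arrays and with array 1 alone. These 4 genes were called in every fit that left out a single array. PCL8, a cyclin linked to glycogen metabolism, was called at -0.57, but not without deletion array 1 (-0.55), deletion array 3 (-0.54) or reference array 3 (-0.50), and not against array 1 (-0.51).

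The other members did not pass the test. PHO85 itself had 422.6, 396.9 and 413.0 in the deletion strain, against 394.5, 648.9 and 385.5 in the reference, a difference of -0.17 and of 0.06 against array 1. PCL10, PCL6, PCL7, PCL1 and PCL9 had differences of -0.39, -0.20, 0.02, 0.29 and 0.22, with -0.33, 0.06, -0.15, 0.10 and 0.46 against array 1. With arrays centred on the median, PCL10 was called at -0.56 (adjusted p = 0.0202, limma). The effects on PCL5, CLG1 and PHO80 differed from those under nitrogen limitation. PCL5 had -1.84 on ethanol and 0.78 under nitrogen limitation (interaction -2.61, adjusted p = 2e-05, limma), and CLG1 and PHO80 had 0.01 each under nitrogen limitation (interactions -1.65 and -1.01, both called). PCL2 had -0.87 there, and its interaction of -0.20 was not called. PCL1 and PCL7, cyclins not called on ethanol, had interactions of 1.79 and 0.91 that were called, with effects of -1.50 and -0.89 under nitrogen limitation.

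The phosphate list held 14 tested genes, of which 3 were called higher and 1 lower. Those shares of 21.4% and 7.14% were near the 17.4% and 10.7% of all genes, so the values below are those of single genes. PHO84, the high-affinity phosphate transporter, had 89.0, 62.4 and 116.5 in the deletion strain, against 11.3, 11.9 and 13.7 in the reference. The reference arrays lay at the floor, and the change was 2.79 ± 0.22 (adjusted p = 4.35e-06, limma), or 2.85 against array 1. Since reference arrays 1 and 2 were below 12, the floor makes this change smaller. PHO4, the transcription factor of the phosphate response, had 343.8, 301.8 and 293.5 in the deletion strain, against 54.0, 74.7 and 17.0 in the reference. It changed by 2.93 ± 0.40 (adjusted p = 0.000218, limma), by 2.53 against array 1 and by 2.30 without reference array 3. PHO89, a sodium-phosphate cotransporter, was called higher at 1.09, but not against array 1 alone (0.60, adjusted p = 0.0945). PHM7, which was called lower at -1.02, was not called without deletion array 1 (-0.85, adjusted p = 0.0619) or against array 1 (-0.75). Under nitrogen limitation the strain effects on PHO84 and PHO4 were -0.09 and 0.61, and the interactions of 2.87 and 2.32 were called.

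**Figure D3:**
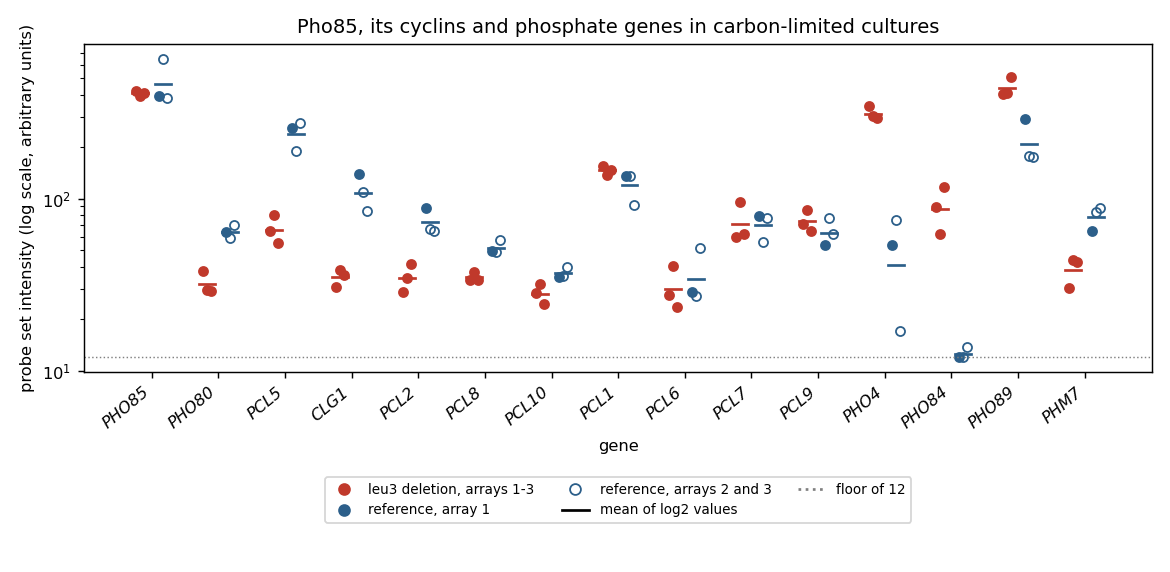
Intensity of PHO85, its cyclins and 4 phosphate genes (log axis, arbitrary units, floored at 12) on the 3 deletion arrays (red, left) and the 3 reference arrays (blue, right; array 1 filled). PHO80, PCL5, CLG1 and PCL2 are lower and PHO4 and PHO84 higher in the deletion strain on every array, while PHO85 overlaps.

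Outside these groups, the decreases that stood furthest from the nearest reference array included several single genes with tight replicates. HPF1, a cell wall mannoprotein, had 284.2, 267.9 and 282.5 in the deletion strain, against 1337.0, 2001.8 and 2107.4 in the reference. Its change of -2.68 ± 0.48 was called (6.40-fold, adjusted p = 0.00134, limma), while the change of -2.27 against array 1 alone was not (adjusted p = 0.092). NAT5, a subunit of the N-terminal acetyltransferase NatA, had 34.7, 45.8 and 37.5 in the deletion strain, against 150.8, 141.4 and 155.0 in the reference. MUB1, a subunit of the ubiquitin ligase that degrades the proteasome regulator Rpn4, had 27.0, 32.6 and 31.3 in the deletion strain, against 105.5, 106.4 and 100.0 in the reference. For both genes the 3 reference arrays lay close together. NAT5 changed by -1.93 (adjusted p = 1.64e-05, limma) and MUB1 by -1.78 (adjusted p = 6.44e-06, limma), with -1.95 and -1.80 against array 1.

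MCK1, a kinase of the GSK-3 family, had 105.9, 124.3 and 161.2 in the deletion strain, against 331.1, 324.4 and 412.8 in the reference. SOK1, a suppressor of the loss of protein kinase A, had 34.5, 34.2 and 34.2 in the deletion strain, against 102.3, 82.7 and 106.8 in the reference. GIP3, which binds the phosphatase Glc7, had 25.3, 23.6 and 38.2 in the deletion strain, against 82.7, 105.1 and 75.5 in the reference. The changes were -1.46 for MCK1, -1.49 for SOK1 and -1.62 for GIP3, and all were called against array 1 as well, at -1.37, -1.58 and -1.54. CPS1, vacuolar carboxypeptidase S, had 18.8, 17.2 and 18.0 in the deletion strain, against 53.1, 54.5 and 54.4 in the reference. Its change was -1.59 (adjusted p = 0.00143, limma), and the -1.56 against array 1 missed the threshold at an adjusted p of 0.0591. RFU1, an inhibitor of the deubiquitinase Doa4, lay under or near the floor in the deletion strain with 7.6, 8.2 and 12.8, against 37.9, 38.2 and 29.3 in the reference. Its change of -1.51 was not called with the floor at 25 (-0.48, adjusted p = 0.155), and against array 1 it was -1.63, still called. The uncharacterised reading frame YOL097W-A changed by -1.70 and MEO1 by -1.74, both called against array 1 too, at -1.63 and -1.09.

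The strain effects on GIP3 were alike in sign under nitrogen limitation, at -1.40, with an interaction of -0.22 that was not called. For HPF1, NAT5, MUB1, MCK1, CPS1, RFU1, YOL097W-A and MEO1 the interactions ran between -3.08 and -1.25, and all were called. SOK1 was lower under both, with -1.49 on ethanol and -0.65 under nitrogen limitation (interaction -0.85, adjusted p = 0.00953, limma).

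The largest increase was that of ATG15, a vacuolar lipase that breaks down autophagic bodies. It had 132.1, 136.6 and 138.7 in the deletion strain, against 19.2, 5.1 and 4.1 in the reference. The change was 3.27 ± 0.28 (9.67-fold, adjusted p = 5.37e-06, limma) and 2.82 against array 1, and since reference arrays 2 and 3 were under the floor, the first value is smaller than an unfloored one. Its other probe sets changed by 2.28 and 2.01, both called. Under nitrogen limitation the effect on ATG15 was 2.12, and the interaction of 1.16 was not called (adjusted p = 0.0522, limma).

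DIP5, a permease for glutamate and aspartate, had 34.0, 43.0 and 59.0 in the deletion strain, against 14.9, 11.1 and 11.5 in the reference. It changed by 1.78 (adjusted p = 3.55e-05, limma) and by 1.57 against array 1. Reference arrays 2 and 3 of DIP5 were under the floor. With the floor at 25 its change was 0.82, still called (adjusted p = 0.013, limma). SRY1, a dehydratase of hydroxyaspartate, had 367.2, 306.4 and 314.3 in the deletion strain, against 126.0, 89.6 and 66.6 in the reference. SRY1 changed by 1.85 on ethanol, by 1.38 against array 1 and by 1.62 under nitrogen limitation. WHI5, the repressor of the G1/S transition, had 35.7, 35.0 and 30.8 in the deletion strain, against 11.7, 3.1 and 2.6 in the reference. All reference arrays were under the floor, so WHI5 was at least 2.81-fold higher (adjusted p = 9.84e-06, limma), also against array 1. On the same footing YJR154W, of unknown function, was at least 2.72-fold higher, also against array 1. VAM7, a vacuolar SNARE, was at least 2.82-fold higher with all 3 reference arrays, but its call failed against array 1 (adjusted p = 0.0566) and with the floor at 25 (0.44, adjusted p = 0.101).

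ARE1, which esterifies sterols, had 195.6, 162.1 and 225.6 in the deletion strain, against 75.3, 70.7 and 45.0 in the reference, a change of 1.63 and of 1.36 against array 1. SGF29, a subunit of the SAGA coactivator, changed by 1.93 and by 1.98 against array 1, and GMC1 by 1.46 and 1.31. TAG1, linked to the end of autophagy, changed by 1.36 and by 1.32 against array 1. Its strain effect under nitrogen limitation was 0.00 (interaction called), a value that signals under the floor would also give. With the floor at 25 the call of TAG1 was lost (0.32, adjusted p = 0.0569). NKP2, of the kinetochore, changed by 2.07, and NIT1, a nitrilase homolog, by 2.19, with 1.49 and 1.35 against array 1.

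Several strong increases were much smaller against reference array 1 alone. RPL7B, a protein of the large ribosomal subunit, had 717.1, 493.9 and 672.2 in the deletion strain, against 355.3, 50.4 and 35.6 in the reference. Reference array 1 lay nearer to the deletion arrays than to the other reference arrays. The change was 2.85 ± 0.59 with all reference arrays (adjusted p = 0.00328, limma) and 0.80 against array 1, where it was not called. It was also not called in a fit of the 6 carbon-limited arrays alone (adjusted p = 0.0614). Its near-identical copy RPL7A changed by 1.28, and 0.62 against array 1, and the probes of the pair may share signal. SFG1, a transcription factor of surface growth, had 90.6, 124.1 and 173.2 in the deletion strain, against 67.6, 20.9 and 14.6 in the reference, a change of 2.19 that was 0.89 and not called against array 1. YOR302W, the short upstream reading frame of the arginine gene CPA1, had 1067.4, 988.7 and 1078.6 in the deletion strain, against 593.9, 155.5 and 115.6 in the reference. It changed by 2.25, and by 0.81 against array 1, still called (adjusted p = 0.0194, limma). INO2, an activator of phospholipid genes, changed by 2.26, and by 1.28 against array 1, still called.

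GCN1, needed to activate the kinase Gcn2, and ERG12, mevalonate kinase, show how far probe sets of one gene disagreed. The brightest single-gene probe set of GCN1 changed by 2.54, and by 1.27 against array 1, while the next brightest differed by -0.15 and was not called. Dimmer probe sets of GCN1 had the sign of the brightest, at 2.69, called, and 1.26, not called. For ERG12 the brightest changed by 2.32, and by 1.14 against array 1, while the next brightest differed by -0.28 and was not called. Dimmer probe sets of ERG12 were at 2.27, called, and 0.37, not called. Among 256 genes with 2 or more probe sets tested, 10 had probe sets called in opposite directions: AXL2, DNF2, ECM33, FAS1, FAS2, NCR1, NPL3, PDR5, RDN37-1 and SCW10. They are named here for that disagreement alone.

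Over all called genes, the size of the change was smaller against array 1. The 926 genes called higher had a median log2 change of 0.71, and of 0.50 against array 1, and the 568 called lower had -0.69 and -0.54. Of those called higher, 18.0% were called again against array 1, and of those called lower 24.6%. Among at least 2-fold changes these shares were 48.4% and 67.0%. Since array 1 is itself one of the reference arrays behind each call, agreement in sign is partly built in. The sign changed for 5 of the genes called higher and 3 of those called lower, among them NOP1 and GPH1.

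**Figure D4:**
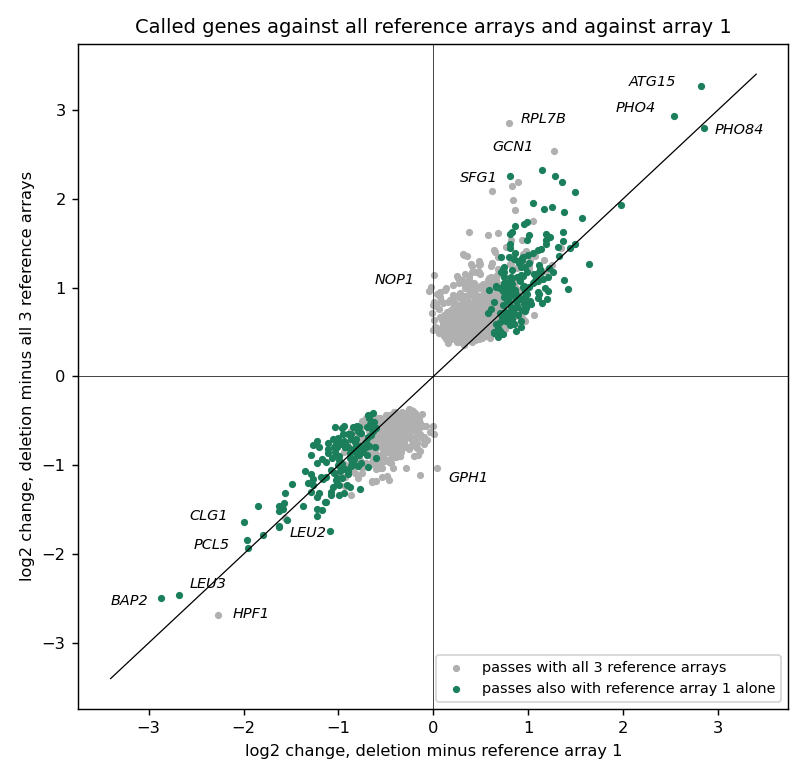
Log2 change of the 1494 called genes with all 3 reference arrays (vertical) and against reference array 1 alone (horizontal), where the diagonal marks equal values. ATG15, PHO84, PHO4, BAP2 and LEU2 lie near the diagonal, while RPL7B and SFG1 lie far above it.

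Other amino acid pathways held more calls toward higher than toward lower levels for histidine and the aromatic amino acids. Of 7 histidine synthesis genes, 5 were called higher and none lower, 71.4% against 17.4% of all genes higher. Their median log2 change was 0.61, and 0.37 against array 1. HIS7, the glutamine amidotransferase of the pathway, had 557.1, 516.7 and 477.2 in the deletion strain, against 236.4, 182.2 and 163.7 in the reference. It changed by 1.43 (adjusted p = 3.42e-05, limma) and by 1.13 against array 1, where it was the single member called. HIS5, the histidinol phosphate aminotransferase, changed by 0.84, and its 0.50 against array 1 was not called. Of 13 aromatic synthesis genes, 6 were called higher and none lower, 46.2% against the same 17.4%. TRP4, an early tryptophan enzyme, had 392.8, 468.5 and 397.2 in the deletion strain, against 195.6, 158.1 and 122.9 in the reference. TRP4 changed by 1.42 and TRP1 by 0.89, and both were called against array 1, at 1.10 and 0.74. The aromatic aminotransferase ARO8 changed by 0.64, and its 0.48 against array 1 was not called.

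Arginine, lysine, serine and sulfur genes gave calls in both directions. Of 8 arginine genes, 3 were called higher and 1 lower, of 9 lysine genes 1 and 2, and of 21 sulfate and methionine genes 5 and 2. With arrays centred on the median these splits were 1 and 2, 0 and 5, and 2 and 6. Without centring, the shares were 37.5% higher and 12.5% lower for arginine, 11.1% and 22.2% for lysine, and 23.8% and 9.52% for sulfate and methionine. Of all genes, 17.4% were called higher and 10.7% lower. The values below are those of single genes. ARG4, argininosuccinate lyase, changed by 0.76 and ARG3, ornithine carbamoyltransferase, by -0.85, with 0.53 and -0.69 against array 1, neither called there. LYS21, homocitrate synthase, changed by -0.73, and the -0.58 against array 1 missed the threshold (adjusted p = 0.0508). SER3, the first enzyme of serine synthesis, had 21.8, 28.1 and 25.9 in the deletion strain, against 48.5, 33.6 and 46.5 in the reference, a change of -0.75 and of -0.95 against array 1. STR3, cystathionine beta-lyase, changed by -0.70 and by -1.06 against array 1, both called. GCV1, of the mitochondrial glycine cleavage complex, had 1399.9, 1289.9 and 1532.8 in the deletion strain, against 650.2, 628.7 and 595.7 in the reference. GCV1 changed by 1.17 (adjusted p = 4.99e-05, limma) and by 1.11 against array 1, while SHM1, the mitochondrial serine hydroxymethyltransferase, changed by -0.79 and by -0.93.

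Among 25 amino acid permeases, 9 were called higher and 2 lower, and 2 in each direction were called against array 1 as well. The shares were 36.0% higher and 8.0% lower, against 17.4% and 10.7% of all genes. Of all genes, 3.14% were called higher and 2.63% lower against array 1 as well. Besides DIP5, the arginine permease CAN1 was higher, with 286.0, 297.9 and 274.1 in the deletion strain, against 148.0, 73.8 and 59.6 in the reference. CAN1 changed by 1.72, and by 0.95 against array 1. Besides BAP2, AGP2, a plasma membrane regulator of carnitine and polyamine uptake, was lower, with 9.4, 7.0 and 8.8 in the deletion strain, against 26.3, 25.4 and 26.9 in the reference. All deletion arrays of AGP2 were under the floor, and it was at least 2.18-fold lower (adjusted p = 3.42e-05, limma). Against array 1 it was at least 2.19-fold lower and also called, and with the floor at 25 it was not called. Of the nitrogen regulators, URE2 changed by 0.96, and by 0.74 against array 1, both called, and GAT1 by -0.73, with -0.74 against array 1, not called there.

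In ethanol and lipid metabolism a minority of genes passed. Of 22 genes of ethanol oxidation and acetyl-CoA, 6 were called lower and 1 higher, 27.3% against 10.7% of all genes lower. Median centring gave 8 lower and 1 higher, and quantile normalization 2 lower and 1 higher. ADH2, the alcohol dehydrogenase that oxidises ethanol, had 4902.5, 4196.4 and 4491.5 in the deletion strain, against 5669.2, 8226.7 and 6722.2 in the reference. Its change of -0.59 was not called without deletion array 2 (-0.53), deletion array 3 (-0.58), reference array 2 (-0.45) or reference array 3 (-0.60), and it was 0.01 under quantile normalization. It was also not called against array 1 (-0.33). CRC1, the mitochondrial carnitine carrier, was the member called higher, at 0.98, and was not called against array 1 (0.52). SIP4, an activator of gluconeogenic genes, had 157.1, 124.5 and 126.3 in the deletion strain, against 245.4, 313.1 and 257.7 in the reference, with changes of -1.0 and of -0.86 against array 1, both called.

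Of 12 fatty acid genes, OLE1, FAA1, FAS1 and FAS2 were called lower on their brightest probe sets, and the probe sets of FAS1 and FAS2 disagreed in direction. These calls are 33.3% of the list, against 10.7% of all genes lower. OLE1, the fatty acid desaturase, had 843.0, 1070.2 and 885.6 in the deletion strain, against 1788.9, 2184.3 and 1770.5 in the reference. OLE1 changed by -1.04 (adjusted p = 0.000236, limma) and by -0.95 against array 1. FAA1, an acyl-CoA synthetase, changed by -0.73, but was not called without deletion array 3 (-0.61, adjusted p = 0.0511) or against array 1 (-0.78). FAS1 and FAS2, the subunits of fatty acid synthase, changed by -0.78 and -0.99 on those probe sets, and by -0.67 and -0.96 against array 1. On dimmer probe sets they were higher, by up to 3.83 and 3.64, so no direction is given for them. CHO2, a methyltransferase of phosphatidylcholine synthesis, changed by -1.33, and its -0.87 against array 1 was not called.

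In the respiratory list of 36 genes, 3 were called higher and 6 lower, 8.33% and 16.7% against 17.4% and 10.7% of all genes. The split was 2 higher and 12 lower with median centring and 5 higher and 4 lower with quantile normalization. INH1, the inhibitor of the ATP synthase, had 411.9, 397.3 and 436.1 in the deletion strain, against 961.4, 1401.0 and 811.1 in the reference, a change of -1.31 and of -1.21 against array 1. ATP2, a catalytic subunit of the same enzyme, changed by -0.71, and COR1, of respiratory complex III, by 0.86, with -0.87 and 0.78 against array 1, both called. DIC1, the mitochondrial dicarboxylate carrier, was called at 0.51, but not without deletion array 1 (0.47, adjusted p = 0.0641) and not with arrays centred on the median (0.34). Against array 1 it was called at 0.70. Its effect under nitrogen limitation was -1.27, with an interaction of 1.78.

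Of 56 mitochondrial ribosomal protein genes, 21 were called higher and 2 lower, a share of 37.5% against 17.4% of all genes higher. Their median log2 change was 0.33, and 0.40 against array 1, with 5 members called there. Median centring gave 11 higher and 4 lower, and quantile normalization 12 higher and 4 lower. MRPS35 had 324.9, 231.9 and 259.1 in the deletion strain, against 123.3, 127.8 and 108.3 in the reference, a change of 1.17 and of 1.13 against array 1. MRP1, of the small subunit, changed by 0.90 and by 0.77. Of 81 cytosolic ribosomal protein genes, 23 were called lower and 3 higher, a share of 28.4% against 10.7% of all genes lower. Their median was -0.29, and -0.25 against array 1, with 2 members called there. The count depended on the scaling, with 40 lower and 2 higher after median centring and 5 lower and 2 higher after quantile normalization, where the median was -0.07. RPL16B had 1048.4, 959.6 and 1079.7 in the deletion strain, against 1783.0, 2249.6 and 2190.0 in the reference, and changed by -1.01 and by -0.79 against array 1. RPS26A changed by -0.96, and was not called against array 1 (-0.47) or under quantile normalization (-0.36).

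For ribosome biogenesis and RNA polymerase I the sign of the median depended on the reference arrays. Of 46 genes 6 were called higher, a share of 13.0% that is below the 17.4% of all genes. The median log2 change was 0.31 with all reference arrays and -0.18 against array 1, where none was called. NOP1, the nucleolar methyltransferase fibrillarin, had 365.6, 371.0 and 381.8 in the deletion strain, against 387.0, 159.1 and 113.4 in the reference. It changed by 0.96, and by -0.05 against array 1. Left-out arrays moved NOP1 between 0.59 without reference array 3 and 1.47 without reference array 1, and it stayed called only in that last fit. RPA135, a subunit of RNA polymerase I, changed by 0.81, and by 0.03 against array 1, and was likewise called only without reference array 1 (1.20) among the fits that left out a single array. RPA34 changed by 1.02, and its 0.54 against array 1 was not called.

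Of 14 general stress genes, 7 were called lower and 2 higher, 50.0% against 10.7% of all genes lower. None was called against array 1, where 75.4% of all genes called lower lost the call. HSP12, a small membrane chaperone, had 1381.0, 1411.5 and 1468.2 in the deletion strain, against 2152.1, 3957.7 and 3910.8 in the reference. It changed by -1.18, and its -0.60 against array 1 was not called (adjusted p = 0.0634). HOR7 and DDR2 changed by -0.82 and -0.77, with -0.43 and -0.34 against array 1, and neither was called against array 1 or under quantile normalization. CTT1, cytosolic catalase, was under the floor on all deletion arrays, at least 1.81-fold lower (1.38-fold against array 1), and not called against array 1 or with the floor at 25. Of 13 vacuolar proteases and inhibitors, 7 were called lower, 53.8%, among them CPS1, described above. DAP2, a vacuolar aminopeptidase, had 130.1, 155.6 and 166.1 in the deletion strain, against 287.1, 365.1 and 489.6 in the reference, and was the member called against array 1 as well (-1.31 and -0.94). PRC1, carboxypeptidase Y, and PBI2, a protease inhibitor, changed by -0.88 and -0.75, with -0.41 and -0.35 against array 1, and PBI2 was not called in a fit of the carbon-limited arrays alone.

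Of 20 trehalose and glycogen genes, 5 were called lower and 1 higher, where 10.7% of all genes were called lower and 17.4% higher. The median log2 change of the list was -0.28 with all reference arrays and 0.10 against array 1. TSL1, a subunit of trehalose synthase, changed by -1.18, and its -0.65 against array 1 was not called. GPH1, glycogen phosphorylase, had 71.2, 108.8 and 70.9 in the deletion strain, against 79.7, 222.8 and 262.3 in the reference. Reference array 1 lay among the deletion arrays, and the change of -1.03 was 0.04 against array 1. It was called without deletion array 2 (-1.23) or reference array 1 (-1.56), but not without any of the other 4 arrays (-0.93 to -0.70). NTH2, a trehalase, was higher with 140.8, 176.5 and 158.4 in the deletion strain, against 85.7, 88.1 and 100.5 in the reference, a change of 0.79 and of 0.88 against array 1. Of 32 proteasome genes, 9 were called higher and 1 lower, 28.1% against 17.4% of all genes higher. None was called against array 1, where 82.0% of all genes called higher lost the call. PUP3, RPN12, RPN7 and RPT1 changed by 0.79, 0.81, 0.80 and 0.63, with 0.56, 0.46, 0.69 and 0.57 against array 1.

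**Figure D5:**
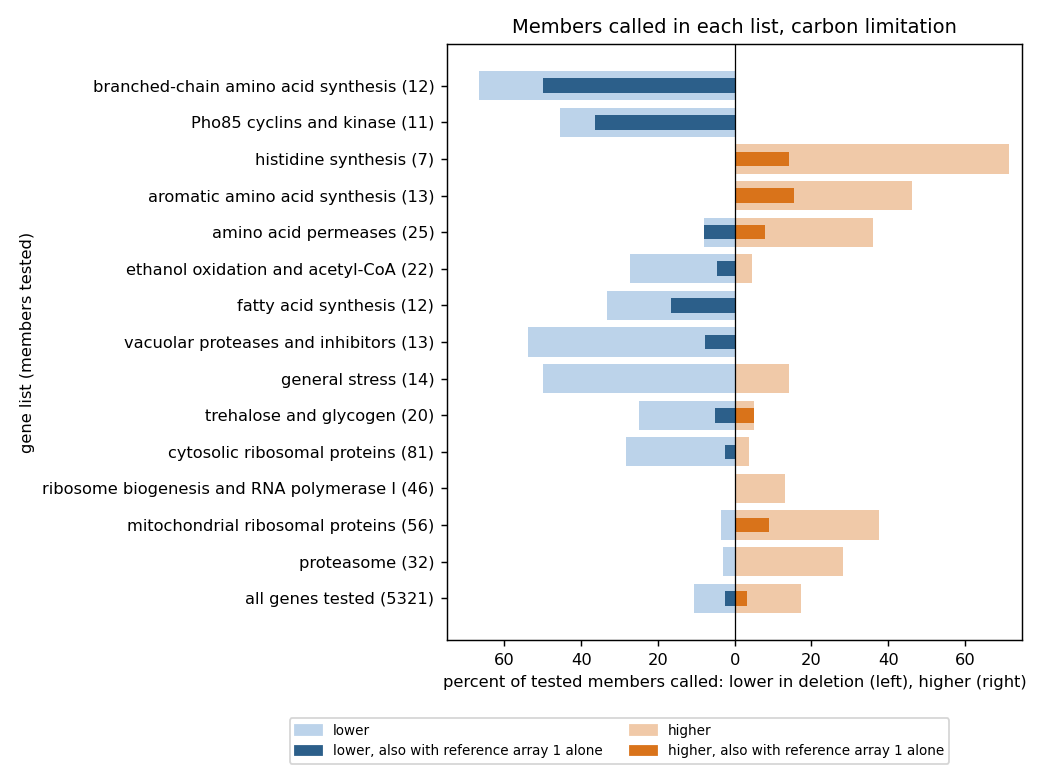
Percent of tested members of each gene list called lower (left, blue) or higher (right, orange) in the deletion strain, with the narrow bars for members also called against reference array 1 alone. Branched-chain and Pho85 lists keep most of their calls against array 1, while general stress, ribosome biogenesis and proteasome lists have none there. Over all genes tested, 3.14% were called higher and 2.63% lower there too.

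Both strains are labelled MATa, and the mating type genes were read as a check. The summed level of 7 a-cell genes was 2902.8 to 3329.7 in the deletion strain and 3246.3 to 5347.3 in the reference. MFA2, an a-factor gene, was called lower at -0.91, but not against array 1 (-0.40) or in a fit of the carbon-limited arrays alone (adjusted p = 0.0503). The summed level of 4 alpha-cell genes was 140.9 to 148.7 in the deletion strain and 174.4 to 220.1 in the reference. Of these, MF(ALPHA)2 was under the floor on all 6 arrays. STE3, the a-factor receptor of alpha cells, was called at -0.43 with intensities of 21.2 to 23.7 in the deletion strain and 25.3 to 36.4 in the reference, but in only 1 of the 6 fits that left out an array (without reference array 2, -0.56). Against array 1 alone STE3 was called at -0.69 (adjusted p = 0.0202, limma). SAG1, alpha-agglutinin, was called at -0.74, but not without deletion array 1 (-0.71), deletion array 2 (-0.72) or reference array 3 (-0.59), and not against array 1 (-0.59). MF(ALPHA)1, the alpha-factor gene, was called at 0.64 on ethanol, with 34.9, 32.0 and 34.2 in the deletion strain, against 25.8, 17.9 and 21.7 in the reference. It was not called without deletion array 1 (0.62), deletion array 3 (0.63) or reference array 2 (0.51), and not against array 1 (0.38). Under nitrogen limitation the strain effect on MF(ALPHA)1 was larger and opposite in sign, at -3.04. Intensities there were 47.4, 36.7 and 28.8 in the deletion strain, against 270.0, 289.9 and 356.6 in the reference. The interaction of 3.68 was called (adjusted p = 4.26e-07, limma), and its cause was not tested.

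Beyond the branched-chain genes, the largest interactions among genes called on ethanol came mostly from large effects under nitrogen limitation. YAR068W had 1037.7, 781.2 and 970.8 in the deletion strain on ethanol, against 1372.2, 1798.5 and 1570.0 in the reference, an effect of -0.77 (-0.57 and not called against array 1), while its effect under nitrogen limitation was 2.67. SPG4, a stationary phase gene, had effects of -1.02 on ethanol, -0.69 against array 1, still called, and 2.32 under nitrogen limitation. ARO10, the decarboxylase of the Ehrlich pathway, had -0.52 and 2.60, and its call on ethanol was lost without deletion array 1 (-0.46), deletion array 3 (-0.50) or reference array 2 (-0.41). TMT1, a methyltransferase that acts on isopropylmalate, had 0.48 and 3.10, and its call on ethanol was lost without deletion array 2 (0.33), reference array 2 (0.48) or reference array 3 (0.40), and under quantile normalization (0.31). ATG41 had -0.58 and 2.17, and was not called on ethanol without deletion array 1 (-0.56), deletion array 3 (-0.53) or reference array 2 (-0.47). CPP3 had -0.85 and 1.74, and was not called on ethanol without deletion array 1 (-0.73) or reference array 3 (-0.52). Against array 1 the differences of ARO10, TMT1, ATG41 and CPP3 on ethanol were -0.36, 0.30, -0.57 and -0.34, and none was called.

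In the other direction, MF(ALPHA)1, described above, had an interaction of 3.68. TLD1 had effects of 1.34 on ethanol and -1.60 under nitrogen limitation, and against array 1 its 0.68 was not called. UIP4, of the nuclear envelope, had 0.75 on ethanol and -1.96 under nitrogen limitation, and its call on ethanol was lost without deletion array 3 (0.59, adjusted p = 0.0506) and against array 1 (0.50). SNZ1, of vitamin B6 synthesis, was called higher under both, with 487.3, 428.0 and 382.0 in the deletion strain on ethanol, against 200.3, 202.7 and 210.5 in the reference. Its effects were 1.07 on ethanol, 1.10 against array 1, still called, and 3.58 under nitrogen limitation. Across all genes, 283 were called under both limitations in the same direction and 84 in opposite directions.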

How the data were processed

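Total RNA of 12 chemostat samples was measured on 1-channel arrays. The deposited values are intensity per probe set on a linear scale, which the authors had scaled: the mean of each array without the lowest and highest 2% was 150.1 to 150.14. Their software and background treatment is not given in the sources used here. Of 9335 probe sets, 6504 matched 1 gene in the platform annotation, with symbols updated through RefSeq gene IDs. Each gene took its brightest probe set. Values were floored at 12 and log2 was taken, and genes above 12 on at least 3 arrays were tested. One model with 4 group means was fitted in limma 3.58.1 (R 4.3.3, lmFit and eBayes, 8 residual degrees of freedom), with two-sided tests and Benjamini-Hochberg adjustment over 5321 genes. The fit was tested on simulated data.

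The comparison, the 47 gene lists and the naming rule were chosen with earlier results of these data known. The rule takes LEU3 and its neighbours, the Leu3 target, branched-chain and Pho85 lists, the 15 genes each way whose deletion mean lay furthest from the nearest reference array, the 10 largest changes and 8 largest interactions each way, and up to 4 called members of each list. It takes 209 genes, of which 124 are named, since list members are named only for the lists described. Alternatives were other floors, filters, scalings, probe set rules, array weights, an actin covariate, a replicate block, and fits without single arrays or without reference arrays 2 and 3. The number of arrays limits the precision. No sequences were used here.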

Additional observations from a re-analysis of the deposited data

Results flagged for a closer look

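For 64 named genes the strain effect on ethanol differed from the strain effect under nitrogen limitation by the interaction test (carbon minus nitrogen, log2, limma with Benjamini-Hochberg adjustment over all genes). The difference was negative for 38 genes and positive for 26. No explanation was weighed for them. Among branched-chain genes, the interaction was ILV2 -1.54, LEU4 -1.36, LEU9 -1.36, ILV5 -1.27, ILV3 -1.17 and BAT2 -0.95, and it was BAP2 -1.86 for that permease. The value of BAP2 is limited by its nitrogen-limited signals, which lay near the floor. For LEU3 the interaction was 0.64, where all deletion arrays lay under the floor under carbon limitation. Among Pho85 cyclins and phosphate genes, it was PCL5 -2.61, CLG1 -1.65, PHO80 -1.01, PCL1 1.79, PCL7 0.91, PHO84 2.87 and PHO4 2.32.

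Of the genes with the largest differences from the reference arrays on ethanol, those lower had interactions of HPF1 -3.08, YOL097W-A -1.93, RFU1 -1.78, NAT5 -1.77, CPS1 -1.68, MUB1 -1.65, MEO1 -1.46, MCK1 -1.25 and SOK1 -0.85. Those higher had NKP2 2.43, SFG1 2.40, INO2 2.11, NIT1 1.68, SGF29 1.40, TAG1 1.36, GMC1 0.90 and DIP5 0.85. Genes taken for the interaction itself had YAR068W -3.44, SPG4 -3.34, ARO10 -3.12, ATG41 -2.74, TMT1 -2.62 and CPP3 -2.60 in the negative direction and MF(ALPHA)1 3.68, TLD1 2.94 and UIP4 2.71 in the positive direction. For ARO10 the nitrogen-limited reference arrays lay at or under the floor, so its interaction is a lower bound in size.

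Amino acid and vitamin genes had interactions of SNZ1 -2.50, STR3 -1.34, AGP2 -1.13, ARG3 -0.99, LYS21 -0.73, SER3 -0.68, ARO8 -0.62, TRP1 0.78 and GCV1 0.74. For AGP2 every nitrogen-limited array of both strains lay under the floor, so its interaction only repeats the effect on ethanol. Carbon, lipid and stress genes had DIC1 1.78, GPH1 2.02, NTH2 1.48, SIP4 -1.07, INH1 -0.93, OLE1 -0.73, HOR7 -0.79 and DDR2 0.81. Ribosomal and proteasome genes had RPL16B -1.14, RPS26A -1.15, MRP1 0.67, RPN12 0.80, RPN7 0.73 and RPT1 0.57.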

How the results depend on the processing

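The count of genes called between the strains on ethanol was 1494. It was 54 with the actin ratio as a covariate (16 higher, 38 lower), 805 from the 6 carbon-limited arrays alone, and 338 without reference arrays 2 and 3. It ranged from 1004 (without deletion array 1) to 1852 (without reference array 1) over the fits that left out 1 array, and 755 genes were called in all 6 of them. The other settings gave 1279 to 1698. The count under nitrogen limitation was 1181, and 2000 with array weights. Over the same left-out arrays it was 1087 to 1389. The count of interactions was 976, and it was 417 with the actin ratio, 1465 with array weights and 634 without reference arrays 2 and 3. Left-out arrays moved it between 654 and 1411, the high end without reference array 1. Centring on the median turned its split to 243 positive and 583 negative, and quantile normalization to 334 and 372, against 697 and 279. Arrays of the same number did not deviate together (correlations of -0.04, -0.06 and -0.03 across genes under carbon limitation), so the numbers were not taken to pair samples. With the replicate block 1358 genes were called on ethanol, 1043 under nitrogen limitation and 857 as interactions, and among named genes STE3 lost its call.

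Of 124 named genes, 112 were called on ethanol, 61 also against reference array 1 alone and 19 with the actin ratio as a covariate. The actin ratio did not overlap between the strains, so its fit cannot cleanly separate the ratio from the strain. Signs turned in these cases. With the actin ratio, the value was 0.53 for GPH1, -0.70 for NOP1, -0.35 for RPA135, -0.30 for RPL7B, -0.03 for SFG1, -0.06 for YOR302W, and, among genes not called, -0.03 for PCL1, 0.45 for PCL6, -0.11 for PCL7 and -0.04 for SST2. Against reference array 1, it was 0.04 for GPH1, -0.05 for NOP1, 0.06 for PCL6, -0.15 for PCL7 and 0.06 for PHO85. Averaging the probe sets gave 1.79 for FAS1 and 1.22 for FAS2, whose probe sets disagree. Quantile normalization gave 0.01 for ADH2 and -0.13 for PCL7, and median centring -0.15 for PCL7. Left-out arrays moved PCL7 between -0.20 and 0.13 (-0.14 without reference array 2) and PCL6 between -0.42 and 0.09, and PHO85 was 0.07 without reference array 2. Apart from the probe sets, the cause was not tested. Signals near the floor of 12 limit RFU1, VAM7, TAG1, AGP2, CTT1, STE3 and MF(ALPHA)1, which were not called with the floor at 25.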
